A study of Mus musculus with 6 samples.

Results

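The 10 genes described here build elastic fibres or crosslink them. They are the elastin gene Eln, the fibrillin gene Fbn1, the fibulin genes Fbln5, Efemp1 and Efemp2, and the lysyl oxidase genes Lox, Loxl1, Loxl2, Loxl3 and Loxl4. They were chosen by symbol, and for each symbol the transcript with the highest mean count was kept. All 10 have a row in all 6 libraries, out of 19893 symbols that do.

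The libraries are bulk RNA-seq of sphere cultures from MMTV-HER2/Neu mice on the FvB background, whose Neu oncogene is expressed in mammary epithelium from the promoter of the mouse mammary tumour virus. The 3 primary tumour (PT) libraries came from breast tumours of mice over 20 weeks old that carried a tumour. The 3 early lesion (EL) libraries came from mice of 14 to 18 weeks without a palpable tumour; their tissue label reads mammary lung, while the protocol speaks of mammary glands. Both groups carry the same transgene, differ in age as well as in stage, and were digested and grown for 7 days without attachment in mammosphere medium before polyadenylated RNA was taken. Both are labelled breast cancer cells, and no cell sort is named.

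Elastic fibres are a core of crosslinked elastin laid on a scaffold of fibrillin microfibrils, and they let the stroma of the mammary gland and the walls of its vessels stretch and recoil. Fibulins bring tropoelastin, the soluble form of elastin, together with microfibrils and with the crosslinking enzymes. Lysyl oxidases are copper-dependent secreted enzymes that oxidise lysines in tropoelastin and in collagen, the step from which the crosslinks form, and in tissue the genes are known mainly from fibroblasts and smooth muscle cells.

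The stretches below are shown because they encode what makes the lysyl oxidases a family, the copper-binding motif of the catalytic domain. They are transcript stretches from GENCODE vM21 (GRCm38), read 5′ to 3′. Capitals mark the 11 codons of the motif, rich in histidine, and lower case marks 15 bases on either side. Each stretch is spliced across an exon junction, so the genomic span is longer than the sequence. The spans are chr9:58293705-58294396 on the minus strand for Loxl1, chr14:69682301-69689052 on the plus strand for Loxl2, chr6:83049980-83050140 on the plus strand for Loxl3 and chr19:42598792-42599914 on the minus strand for Loxl4.
Loxl1: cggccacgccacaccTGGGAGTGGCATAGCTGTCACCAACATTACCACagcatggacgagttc
Loxl2: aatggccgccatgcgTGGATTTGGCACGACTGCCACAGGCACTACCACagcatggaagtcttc
Loxl3: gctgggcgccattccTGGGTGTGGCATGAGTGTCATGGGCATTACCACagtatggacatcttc
Loxl4: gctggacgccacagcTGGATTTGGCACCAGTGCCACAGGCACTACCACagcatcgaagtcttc
Over the 33 bases in capitals, Loxl2 and Loxl4 matched at 31 bases (93.9%). Lox, whose stretch is not printed, matched Loxl1 at 32 of 33 bases. The other pairs matched at 63.6% to 75.8%. In the comparison of the groups given below, Lox and Loxl1 had similar log2 fold changes (-6.42 and -6.28), while Loxl2 and Loxl4 had the lowest and the highest of the family (-6.71 and -1.28).

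All 10 genes were lower in PT spheres than in EL spheres, and the libraries of the groups did not overlap for any of them. Expression is given in CPM, counts scaled to library totals after TMM correction, and a gene counts as changed where the adjusted p of edgeR's quasi-likelihood test (Benjamini-Hochberg over all 13844 genes tested) was below 0.05. By that rule all 10 were called lower, as were 40.8% of all tested genes, while 39.9% were called higher and 80.7% were called in either direction, so being called lower is common here. Scaled by library totals alone, 34.2% of the called genes were lower, against 50.5% with TMM, and all 10 genes were still called lower. The groups failed to overlap with PT lower for 41.7% of all tested genes. As a description of size, their median log2 fold change, PT minus EL, was -6.22, against 0.00 over all tested genes. In 7 of the 10, namely Eln, Fbn1, Efemp1, Efemp2, Lox, Loxl1 and Loxl2, the difference was over 16-fold, a bound chosen after the values were seen, against 6.98% of all tested genes. Efemp2 is just past this bound (-4.01) and inside it under 5 of the 17 alternatives, which leaves 6 genes. All 10 were over 2-fold lower, against 19.4% of all tested genes.

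Summed over the 10 genes, expression was 136.9 ± 6.09 CPM in PT and 6181 ± 498.5 CPM in EL (SD, n = 3 each). In bulk libraries, fewer cells of a type and less RNA per cell cannot be told apart. Marker lists for several cell types also differed between the groups, some lower in PT like these genes and some higher. All 16 of 16 fibroblast markers were lower in PT, with summed levels of 685 to 819 CPM in PT and 70157 to 75336 CPM in EL, and none was at 0 in PT. All 12 of 12 endothelial markers were lower, with 12.4 to 13.9 CPM in PT and 306 to 329.9 CPM in EL. None was at 0 in every PT library, but Cldn5 had 0, 0 and 0.0180 CPM in PT libraries 1 to 3. Vwf (5.72 CPM) and Eng (4.03 CPM) had the highest PT means of the 12. With library totals alone Vwf was not past the threshold (-0.20, against -0.45 with TMM; edgeR adjusted p = 0.0781), which leaves 11 of 12. The 8 of 8 markers of pericytes and vascular smooth muscle were lower, with 138 to 148 CPM in PT and 1431 to 1648 CPM in EL and none at 0 in PT, although Notch3 turned from -0.18 to 0.07 on the log2 scale when library totals alone were used. All 12 of 12 epithelial markers were higher, with 8416 to 8753 CPM in PT and 2423 to 2483 CPM in EL. Among the basal and myoepithelial markers 5 of 8 were lower and 3 were higher, with sums of 604 to 636.5 CPM in PT and 483 to 532 CPM in EL. The 3 higher were Krt14, Krt17 and Oxtr. Krt5, the furthest lower of the 8, averaged 0.143 CPM in PT and 52.5 CPM in EL. Of 9 macrophage markers tested, 8 were higher, with 651.5 to 673 CPM in PT and 312 to 328 CPM in EL. Most of this sum was Cd14, which averaged 481 CPM in PT and 240 CPM in EL. All 3 adipocyte markers tested were lower, with 32.3 to 40.7 CPM in PT and 370 to 440 CPM in EL, while Adipoq, Plin1 and Lep were at 0 in PT and had 10, 2 and 0 counts in EL. Most of the adipocyte sum was Lpl, which averaged 34.3 CPM in PT and 388 CPM in EL. The part of these cell types in the results was not tested. EL library 1, whose table is incomplete, was the highest EL library for 6 of the 10 genes and the lowest for 4.

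**Figure D1:**
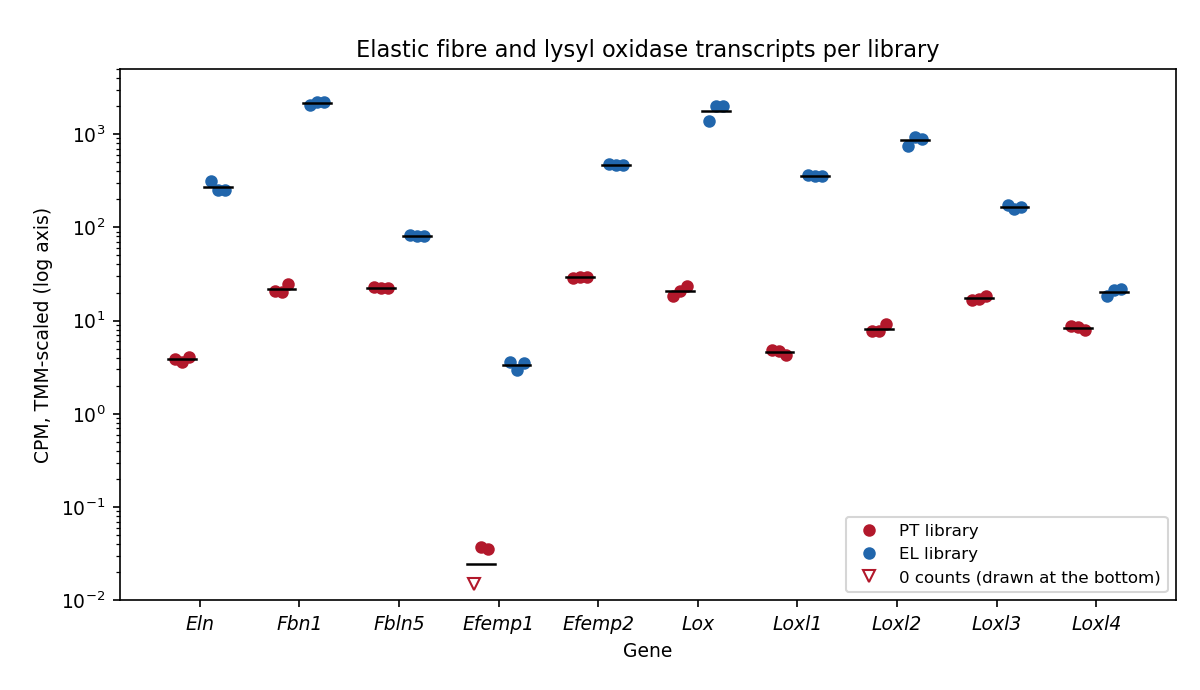
Expression of the 10 genes in each library, in CPM on a log axis, with PT left of EL; each point is 1 library, bars are group means, and the open triangle is the Efemp1 library with 0 counts, drawn at the bottom. The PT libraries lie below the EL libraries for every gene, among them Fbn1 (20.2 to 24.8 CPM in PT, 2047 to 2232 CPM in EL) and Loxl4 (7.94 to 8.74 CPM in PT, 18.2 to 21.6 CPM in EL), whose groups lie closest on the log axis.

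The core and its scaffold were both far lower in PT. Eln (chr5:134702595-134747368, minus strand, GRCm38), which encodes the elastin core, had 3.92, 3.58 and 4.02 CPM in PT libraries 1 to 3 and 312, 255 and 252 CPM in EL libraries 1 to 3. The PT values are close together, and EL library 1 is the highest of the 6. These were 191 to 224 counts per PT library and 10105 to 12703 per EL library. The log2 fold change of Eln was -6.15 ± 0.10 (SE; edgeR adjusted p = 5.77e-15), a level 71.0-fold lower in PT. Fbn1 (chr2:125300594-125506485, minus strand), which encodes fibrillin-1, the main protein of the microfibril scaffold, had 20.7, 20.2 and 24.8 CPM in PT and 2047, 2224 and 2232 CPM in EL. In PT the third library is the highest, and in EL the first is the lowest. Fbn1 was 99.0-fold lower in PT, with a log2 fold change of -6.63 ± 0.07 (SE; edgeR adjusted p = 3.40e-16).

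The 3 fibulins differed from each other in how far they were lower. Fbln5 (chr12:101746565-101819119, minus strand), which ties tropoelastin to cell surfaces and to Loxl1, had 22.7, 22.2 and 22.5 CPM in PT and 81.9, 81.1 and 81.4 CPM in EL. Both groups are tight, and they stand 3.63-fold apart, far less than for Eln. Its log2 fold change was -1.86 ± 0.04 (SE; edgeR adjusted p = 3.24e-14, 95% interval -1.94 to -1.78). Efemp2 (chr19:5473946-5482520, plus strand), also called fibulin-4 and needed for elastic fibre assembly and for Lox activation, had 28.7, 29.2 and 29.7 CPM in PT and 475, 467 and 468 CPM in EL. Every library of a group is within a narrow band, and the level was 16.1-fold lower in PT. The log2 fold change of Efemp2 was -4.01 ± 0.03 (SE; edgeR adjusted p = 5.30e-17, 95% interval -4.08 to -3.94). Efemp1 (chr11:28853154-28926743, plus strand), also called fibulin-3, was near the limit of detection in PT, with 0, 2 and 2 counts, against 145, 118 and 140 counts in EL. In CPM these are 0, 0.0375 and 0.0359 in PT and 3.56, 2.97 and 3.49 in EL. All 3 PT values lie under 3 counts, which is 0.0585 CPM in PT library 1, the one at 0. The ratio of EL over PT is 134, with a 95% counting interval of 51.9 to 494, and the fitted log2 fold change of -6.92 ± 0.34 (SE; edgeR adjusted p = 5.07e-10) rests on the 4 PT counts.

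Of the 5 lysyl oxidases, Lox, Loxl1 and Loxl2 were over 16-fold lower in PT, and Loxl3 and Loxl4 were lower by less. Lox (chr18:52516060-52529867, minus strand), the founding member of the family, had 18.3, 20.7 and 23.4 CPM in PT and 1378, 1983 and 1984 CPM in EL. EL library 1 is well under the other two, at 0.695 of their mean, but is still far above every PT library. Its log2 fold change was -6.42 ± 0.15 (SE; edgeR adjusted p = 2.18e-13), an 85.7-fold lower level. Loxl1 (chr9:58287723-58313212, minus strand), which elastic fibre renewal in adult mice depends on, had 4.89, 4.72 and 4.26 CPM in PT and 365, 359 and 354 CPM in EL. The EL libraries are nearly level, and the log2 fold change of Loxl1 was -6.28 ± 0.05 (SE; edgeR adjusted p = 5.30e-17). Loxl2 (chr14:69608692-69695834, plus strand), known for crosslinking collagen IV of basement membranes, had 7.80, 7.68 and 9.11 CPM in PT and 750.3, 929 and 894 CPM in EL. As for Lox, the lowest EL library is the first, at 0.823 of the mean of the other two. Loxl2 had a log2 fold change of -6.71 ± 0.09 (SE; edgeR adjusted p = 1.86e-15).

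Loxl3 (chr6:83034205-83052566, plus strand), which in mice is needed for palate and spine development, had 16.8, 17.3 and 18.2 CPM in PT and 173, 158 and 165 CPM in EL. The groups are 9.50-fold apart, and the log2 fold change was -3.25 ± 0.05 (SE; edgeR adjusted p = 2.12e-15). Exons of Loxl3 share 535 bases, 13.1% of its kept transcript, with Htra2 on the opposite strand, and the strand setting of the counting is not given in the sources used here. Htra2, a mitochondrial protease gene, had 35.7 ± 0.459 CPM in PT and 56.5 ± 3.45 CPM in EL (SD, n = 3 each). If its reads were spread evenly and counted for Loxl3 on the shared bases, they would make up 63.5% of the Loxl3 level in PT and 10.6% in EL, and the log2 difference without them would be -4.54. The level of Loxl3 in PT is therefore uncertain, and its direction is the same with and without these reads. Loxl4 (chr19:42592279-42612806, minus strand), a family member with the same scavenger receptor domains as Loxl2 and Loxl3, had 8.74, 8.63 and 7.94 CPM in PT and 18.2, 21.4 and 21.6 CPM in EL. It had the smallest difference of the 10, a log2 fold change of -1.28 ± 0.08 (SE; edgeR adjusted p = 4.92e-09, 95% interval -1.44 to -1.11).

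**Figure D2:**
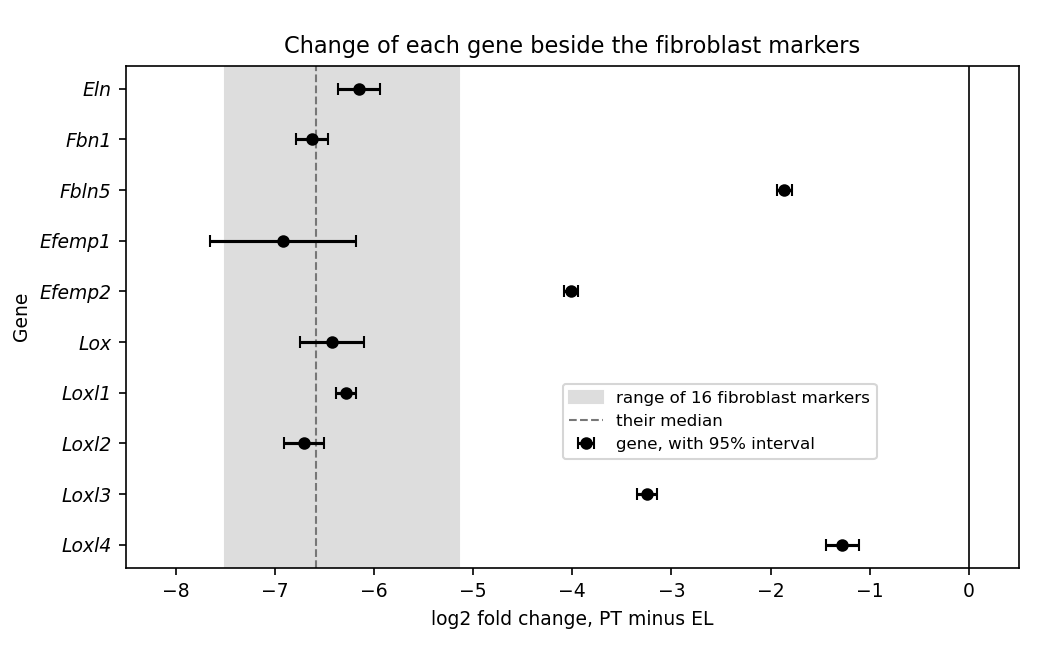
Log2 fold change, PT minus EL, of each of the 10 genes from edgeR, with 95% intervals; the grey band is the range of the 16 fibroblast markers and the dashed line their median. Eln, Fbn1, Efemp1, Lox, Loxl1 and Loxl2 fall within the marker range of -7.50 to -5.14, while Efemp2 (-4.01), Loxl3 (-3.25), Fbln5 (-1.86) and Loxl4 (-1.28) lie above it.

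Set against the fibroblast markers, the genes fell into 2 descriptive groups, a division made after the values were seen. The 16 markers had a median log2 fold change of -6.58 and ranged over -7.50 to -5.14. Eln, Fbn1, Efemp1, Lox, Loxl1 and Loxl2 lay inside this range, and Fbln5, Efemp2, Loxl3 and Loxl4 lay above it. The level of a gene relative to the mean log2 level of these markers is given here with no test. Relative to the markers, Eln stood at -1.48 in PT and -1.66 in EL, a difference of 0.18 on the log2 scale. Loxl1 stood at -1.21 in PT and -1.26 in EL, and Lox at 0.94 in PT and 1.03 in EL, and for both the libraries of the groups overlapped. Fbn1 stood at 1.02 in PT and 1.34 in EL (difference -0.32) and Loxl2 at -0.39 in PT and -0.01 in EL (difference -0.39), and for these, as for Eln, the groups did not overlap. For Efemp1 the difference of 0.61 depends on the prior count, since its PT counts are 0 to 2. In contrast, Fbln5 stood at 1.06 ± 0.09 in PT and -3.40 ± 0.07 in EL (SD, n = 3 each), above the marker mean in PT and below it in EL. The same held for Efemp2, at 1.44 ± 0.07 in PT and -0.87 ± 0.06 in EL, and for Loxl3, at 0.70 ± 0.04 in PT and -2.37 ± 0.01 in EL. These levels are not per length, so a place above or below the marker mean depends on transcript lengths as well. Reads of Htra2 could make up 63.5% of the Loxl3 level in PT, as given above. The place of Loxl3 above the marker mean in PT is therefore uncertain. Loxl4 stood at -0.35 ± 0.16 in PT and -5.39 ± 0.20 in EL, the widest difference of the 10 (5.05).

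Levels of different genes can be compared only per length, so CPM was divided by the length of the kept transcript in kilobases. In PT the highest was Efemp2, at 16.4 ± 0.274 CPM per kb (SD, n = 3). Lox at 4.38 ± 0.534 and Loxl3 at 4.25 ± 0.173 CPM per kb came next and overlapped, and Lox also overlapped Fbln5. With the even share of Htra2 taken off, Loxl3 would be at 1.55 CPM per kb in PT, below Fbn1. They were followed by Fbln5 (3.85 ± 0.042), Loxl4 (3.22 ± 0.165), Loxl2 (2.69 ± 0.261), Fbn1 (2.22 ± 0.253), Loxl1 (1.40 ± 0.0998) and Eln (0.997 ± 0.0607), and Efemp1 was last at 0.0120 CPM per kb. In EL the order was different, with Lox at 376 ± 73.8, Loxl2 at 282 ± 31.1 and Efemp2 at 264 ± 2.40 CPM per kb at the top. Of these, Lox overlapped with Loxl2 and Loxl2 with Efemp2. With the longest transcript's length, chosen after seeing the data, Loxl2 was at 161 CPM per kb in EL, below Fbn1 at 181 and Efemp2 at 179, and in PT at 1.54, below Fbn1 at 1.83. Fbn1 (220.2 ± 10.6), Loxl1 (109 ± 1.75), Eln (70.8 ± 8.82), Loxl3 (40.4 ± 1.86), Fbln5 (14.0), Loxl4 (7.80 ± 0.725) and Efemp1 (1.64 ± 0.158) followed. Eln, the fibre core, was thus second to last in PT and sixth in EL, and Efemp1 was last in both.

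The makeup of the lysyl oxidase family differed between the groups, as described here with no test. Their summed level was 59.5 ± 3.19 CPM in PT and 3185 ± 433 CPM in EL (SD, n = 3 each). As shares of the summed level per kb, Lox made up 25.1, 27.6 and 29.5% in PT and 41.7, 47.6 and 48.2% in EL. Loxl2 made up 16.7, 15.9 and 17.9% in PT and 35.4, 34.7 and 33.8% in EL. Both had the smaller shares in PT, and their libraries did not overlap. Loxl1 had 8.82 ± 0.986% in PT and 13.5 ± 2.03% in EL. Loxl3 had the larger shares in PT, with 26.8, 26.6 and 26.6% in PT and 6.07, 4.39 and 4.64% in EL, and the overlap with Htra2 given above bears on its PT share. Loxl4 made up 21.7, 20.8 and 18.2% in PT and 0.999, 0.932 and 0.949% in EL. Lox and Loxl2 together held 44.3 ± 2.88% in PT and 80.5 ± 2.96% in EL, while Loxl3 and Loxl4 together held 46.9 ± 1.90% in PT and 5.995 ± 0.941% in EL. Which pair was larger in PT was not fixed. In PT library 3 the pairs held 47.45% and 44.8%. From counts without length they held 48.6% and 43.6% in PT, and with all transcripts summed 55.95% and 38.9%. The sizes depend on the transcripts counted and on the lengths used. With the counts of all transcripts of a gene summed, Lox held 46.2% in PT and 70.6% in EL, and Loxl1 5.11% in PT. Loxl2 then held 9.77% in PT and 18.4% in EL, and Loxl3 15.4% in PT and 2.69% in EL. This sum counts reads of Lox and of Loxl4 more than once, since their transcripts share them. With the longest transcript's length, Loxl2 held 11.1% in PT. In both, Lox, Loxl1 and Loxl2 had the smaller mean shares in PT and Loxl3 and Loxl4 the larger. A larger share of Loxl3 or Loxl4 in PT is a share of a smaller total, since each was itself lower in PT in CPM.

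**Figure D3:**
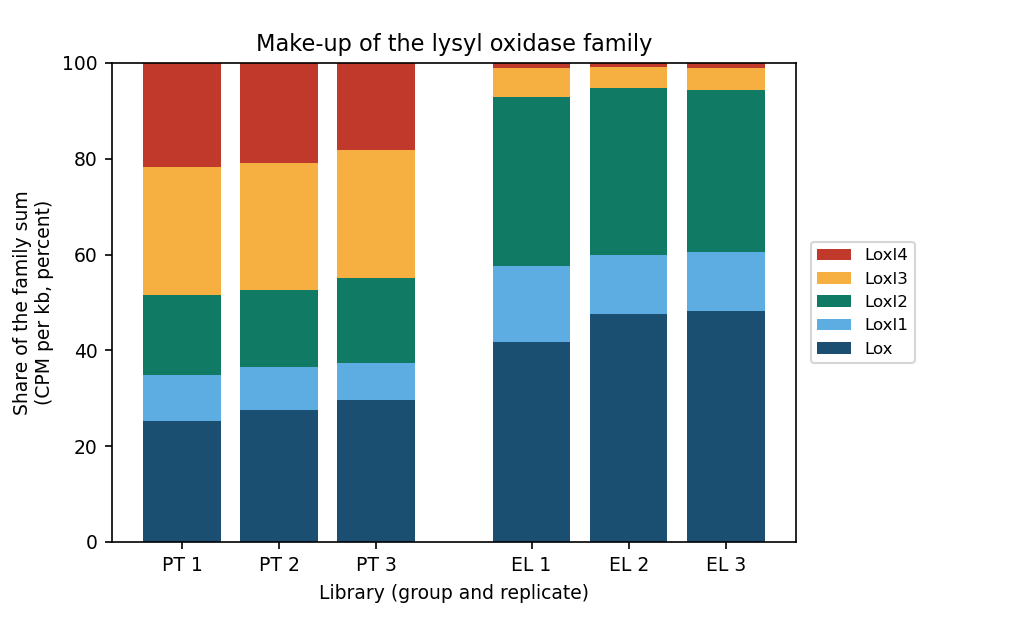
Share of each lysyl oxidase gene in the summed level per kb of the 5 genes, in percent, for each library, with PT left of EL. Lox and Loxl2 together held 44.3% in PT and 80.5% in EL, and Loxl3 and Loxl4 together 46.9% in PT and 5.995% in EL. Which pair was larger in PT depended on the library and on the lengths and transcripts counted.

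The pathway lists around these genes were lower on the whole in PT, with exceptions that were higher. Of the 20 tested partners of microfibrils and elastic fibres, 15 were lower and 5 were higher, with a median log2 fold change of -3.02, against 40.8% lower, 39.9% higher and a median of 0.00 over all tested genes. The call for Mfap3, a microfibril protein gene, was not firm: its log2 fold change was -0.09, and it was not past the threshold under 7 of the alternatives, which leaves 14 lower. With library totals alone it turned to 0.15 and was called higher (edgeR adjusted p = 0.00135), which makes 6 higher. Fbln1, encoding fibulin-1, averaged 1.15 ± 0.273 CPM in PT and 192 ± 10.9 CPM in EL (SD, n = 3 each; log2 fold change -7.38). Fbln2, encoding fibulin-2, averaged 94.6 ± 8.34 CPM in PT and 6885 ± 185 CPM in EL (-6.19). Mfap5, a microfibril protein gene, averaged 3.72 ± 0.636 CPM in PT and 361 ± 22.7 CPM in EL (-6.59). Emilin1, which encodes a glycoprotein at the surface of elastic fibres, averaged 5.73 ± 0.569 CPM in PT and 242 ± 0.941 CPM in EL (-5.40). Ltbp4, of the latent TGF-beta binding proteins, had 5.16 ± 0.328 CPM in PT and 38.2 ± 3.16 CPM in EL (-2.89), and is named here beside its relatives after its values were seen. The 5 genes that were higher in PT include the 3 other Ltbp genes. Ltbp2, which binds fibrillin, averaged 919 ± 25.4 CPM in PT and 265 ± 11.1 CPM in EL (log2 fold change 1.79). Ltbp3 had 934 ± 32.4 CPM in PT and 453 ± 8.23 CPM in EL (1.04), and Ltbp1 had 72.1 ± 5.01 CPM in PT and 22.6 ± 1.57 CPM in EL (1.67). Adamtsl4, which binds fibrillin-1, had 43.3 ± 1.10 CPM in PT and 7.64 ± 0.490 CPM in EL (2.50). Thsd4, also known as Adamtsl6, had 201 ± 2.35 CPM in PT and 62.4 ± 3.92 CPM in EL (1.69).

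Genes that activate lysyl oxidases or supply copper were lower for 9 of 10 tested, with a median log2 fold change of -3.80, against 40.8% lower and a median of 0.00 over all tested genes. Slc31a1, a copper importer gene, had a log2 fold change of -0.11 that turned to 0.14 with library totals alone and was not past the threshold with upper-quartile factors or without PT library 2, PT library 3 or EL library 3, which leaves 8 lower. Bmp1, whose protease cuts the Lox propeptide, averaged 134 ± 3.36 CPM in PT and 1021 ± 52.6 CPM in EL (SD, n = 3 each; log2 fold change -2.93). Pcolce, a procollagen proteinase enhancer gene, averaged 7.35 ± 0.759 CPM in PT and 521 ± 34.5 CPM in EL (-6.15). Fn1, encoding fibronectin, had 904 ± 19.5 CPM in PT and 6511 ± 431 CPM in EL (-2.85). Postn, encoding periostin and also a fibroblast marker here, had 215 ± 10.3 CPM in PT and 8205 ± 428 CPM in EL (-5.25). The 1 gene higher was Atox1, a copper chaperone gene, with 80.9 ± 2.43 CPM in PT and 61.5 ± 1.41 CPM in EL (0.40).

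Collagen genes, the other substrates of lysyl oxidases, were lower for 10 of 13, higher for 2 and not past the threshold for Col2a1, with a median log2 fold change of -5.75. Col1a1, Col1a2, Col3a1 and Col5a1 are also fibroblast markers here, so the collagen and fibroblast lists are not separate results. Over all tested genes 40.8% were lower and 39.9% higher, with a median of 0.00. Col1a1 averaged 178 ± 16.4 CPM in PT and 19014 ± 487 CPM in EL (SD, n = 3 each; log2 fold change -6.74). Col5a1 was at -6.86 and Col5a2 at -6.66, and Col4a2, a basement membrane chain, was at -5.66 on the log2 scale. The fibrillar collagen genes Col11a1, with 126 ± 4.23 CPM in PT and 43.4 ± 2.75 CPM in EL (1.53), and Col11a2, with 9.34 ± 0.611 CPM in PT and 6.85 ± 0.974 CPM in EL (0.45), were higher. Col2a1 averaged 0.255 CPM in PT and 0.415 CPM in EL. Of the 14 tested proteases that cut elastin and their inhibitors, 10 were lower and 1 higher, with a median log2 fold change of -1.65, against the same 40.8% lower and 39.9% higher over all tested genes. The count of higher genes was 3 with library totals alone and 2 without PT library 1, EL library 2 or EL library 3. Mmp2, a gelatinase gene, averaged 41.6 ± 3.74 CPM in PT and 3174 ± 202 CPM in EL (log2 fold change -6.25). Ctsk, the cathepsin K gene, was at -5.91, the inhibitor gene Timp1 at -5.29 and the cystatin C gene Cst3 at -1.91 on the log2 scale. Slpi, an inhibitor of leukocyte elastase, was higher, with 312 ± 12.9 CPM in PT and 136 ± 10.3 CPM in EL. Mmp7 (0.652 CPM in PT and 0.598 CPM in EL), Ctss (104 CPM in PT and 90.6 CPM in EL) and Mmp12 did not pass the threshold, and Mmp12, the macrophage elastase gene, had 244 ± 24.98 CPM in PT and 230 ± 40.7 CPM in EL, with overlapping libraries.

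**Figure D4:**
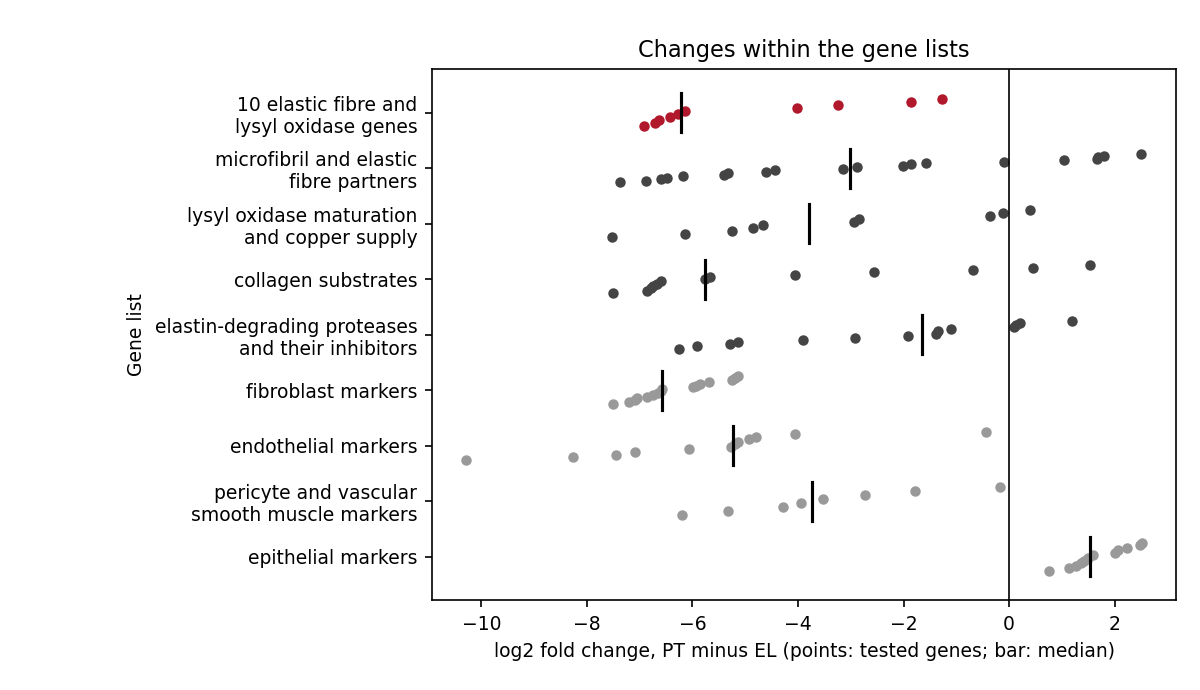
Log2 fold change, PT minus EL, of the 10 genes, of each tested gene in the 4 pathway lists, and of the fibroblast, endothelial, pericyte and epithelial markers, 1 point per gene, with a bar at the median of each list. The pathway medians are -3.02, -3.80, -5.75 and -1.65, and the fibroblast and epithelial marker medians are -6.58 and 1.54. Col1a1, Col1a2, Col3a1, Col5a1 and Postn are drawn both in a pathway list and among the fibroblast markers.

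With Gm, Rik and LOC symbols left out, the genes whose pattern over the 6 libraries lay nearest to that of Eln were Pdgfrb, Igsf10, Sema7a, Alx4 and Osr2. Osr2 had 0.0187 CPM in PT, under the 3-count floor, and a fitted log2 fold change of -7.60, so its distance depends on the prior count. The Euclidean distances in centred log2 CPM over the 6 libraries were 0.121, 0.197, 0.206, 0.213 and 0.229. The closest, Pdgfrb, a receptor gene that is also on the pericyte list, averaged 14.1 ± 1.09 CPM in PT and 1035 ± 108 CPM in EL (SD, n = 3 each).

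Promoters are shown because the genes were lower together. RefSeq (GRCm38.p6) gave 300-base promoter entries for 5 of the 10, namely Fbn1, Efemp1, Fbln5, Efemp2 and Loxl4. Fbln5 had 2 entries and Efemp2 had 3. Only the first entry listed for a gene was used, here and for all promoters, so motif counts and GC content rest on it. The pair printed are those of Fbn1 (chr2:125506389-125506688, minus strand), far lower in PT, and Loxl4 (chr19:42612757-42613056, minus strand), the least changed. Capitals mark GGGCGG on either strand, the core of a GC box.
Fbn1: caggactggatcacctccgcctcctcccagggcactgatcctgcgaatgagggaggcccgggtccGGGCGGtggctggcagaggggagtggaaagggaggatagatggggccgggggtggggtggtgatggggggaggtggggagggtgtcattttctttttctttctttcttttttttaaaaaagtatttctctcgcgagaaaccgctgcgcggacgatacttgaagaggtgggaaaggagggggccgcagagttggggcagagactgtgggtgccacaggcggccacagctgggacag
Loxl4: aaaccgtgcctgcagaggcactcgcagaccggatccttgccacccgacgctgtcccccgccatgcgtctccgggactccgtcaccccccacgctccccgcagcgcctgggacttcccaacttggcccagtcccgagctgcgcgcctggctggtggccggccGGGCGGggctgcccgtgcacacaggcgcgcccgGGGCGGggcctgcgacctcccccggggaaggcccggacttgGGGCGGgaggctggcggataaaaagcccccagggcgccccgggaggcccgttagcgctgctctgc
GGGCGG on either strand was found in all 5, with 1 match in Fbn1, 1 in Efemp1, 2 in Fbln5, 2 in Efemp2 and 3 in Loxl4, and in 35.9% of 27025 promoters of the same length. TATAAA was in none of the 5 and in 14.2% of all promoters. ACGTG was in Efemp2 alone of the 5 and in 19.7% of all. CAGAC was in 4 of the 5, all but Fbn1, and in 49.7% of all. No match overlapped one of another motif. The GC content was 60.3% for Fbn1, 54.3% for Efemp1, 65.7% for Fbln5, 60.3% for Efemp2 and 75.0% for Loxl4, against a median of 52.7% over all promoters.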

How the data were processed

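The authors deposited raw whole-number counts per RefSeq transcript. Per the submitters' processing notes, STAR, featureCounts and DESeq2 were used, with builds mm10 and hg19; their versions and parameters, including the strand option, were not given in the sources used here. Total counts over all transcript rows present were 78054335, 81804624 and 85126630 in PT libraries 1 to 3 and 69759793, 72808910 and 73654058 in EL libraries 1 to 3. The EL library 1 table breaks off after 27664 of 33068 rows, so 5404 transcripts were left out; these hold 5.54 to 6.96% of the counts of the 5 complete libraries. All 10 genes have rows in all 6.

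From the counts, 1 transcript per symbol (highest mean) was kept for rows present in all 6. Genes passing filterByExpr were tested in edgeR 4.0.16 (R 4.3.3) with TMM scaling, the quasi-likelihood test and Benjamini-Hochberg adjustment at 0.05. The SE is the absolute log2 fold change over the square root of F. The fit was tested on simulated data. Lengths for levels per kb came from GENCODE vM21, and matched 98.8% of kept transcripts. Counting intervals cover counting error only. Log2 levels used a prior count of 2.

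Named are all 10 genes, the 4 genes with the smallest p in each pathway list, and list genes past the threshold against their list's direction. The 5 genes nearest to Eln, with Gm, Rik and LOC symbols left out, are named as well. The marker lists are given mainly by their sums, counts and medians, and most of their genes are not named. Other genes named were chosen after their values were seen. The genes and lists were chosen with earlier results of these data known. Nothing says whether the 3 libraries of a group are separate mice, so the p-values reflect only library-to-library spread, which may be technical. Alternatives were other normalizations, filters, transcripts, tools (limma 3.58.1, DESeq2 1.42.0), a replicate block and each library left out. The main fit did not pair the samples by replicate number. Correlations of same-numbered deviations were 0.022, 0.008 and -0.002. These values show no shared signal, but they cannot tell whether same-numbered samples were handled together.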

Additional observations from a re-analysis of the deposited data

How the results depend on the processing

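All 10 genes stayed lower in PT and past the threshold under all 17 alternatives, with Eln between -6.20 and -5.90, Lox between -6.58 and -6.17 and Loxl4 between -1.36 and -1.03 on the log2 scale. Over all genes, 11173 were called (5646 lower, 5527 higher). With library totals alone 12022 were called (4111 lower, 7911 higher), the median moved by 0.25, and the share lower among those called was 34.2%, against 50.5%. DESeq2 called 10730, limma-voom 11158 and the complete files 12197. Leaving out 1 library gave 10758 to 11283. With the replicate block, 11203 were called (5664 lower, 5539 higher), and no call among the 10 genes changed. The number of elastin-degrading proteases and inhibitors higher in PT was 1, but 2 with upper-quartile factors, limma-voom and the replicate block, 3 with library totals alone, and 1 to 2 with 1 library left out (2 without PT library 1, EL library 2 or EL library 3). The number of higher lysyl oxidase maturation genes was 1, but 2 with library totals alone. For the partners of microfibrils and elastic fibres the number higher was 5, but 6 with library totals alone. Family shares depend on length and on the transcripts counted. From counts without length, Lox held 34.9% in PT and 55.6% in EL, Loxl1 7.81% in PT and 11.5% in EL, Loxl2 13.8% in PT and 27.0% in EL, Loxl4 14.2% in PT and 0.644% in EL, and Loxl3 29.3% in PT. The sum of all transcripts counts reads of Lox and of Loxl4 more than once by construction. From this sum, Lox held 46.2% in PT and 70.6% in EL, Loxl1 5.11% in PT and 7.22% in EL, Loxl2 9.77% in PT and 18.4% in EL, Loxl3 15.4% in PT and 2.69% in EL, and Loxl4 23.5% in PT and 1.02% in EL. With the longest transcript's length, chosen after seeing the data, Lox held 31.6% in PT and 54.0% in EL, Loxl1 10.2% in PT and 15.96% in EL, Loxl2 11.1% in PT and 23.4% in EL, Loxl4 16.4% in PT and 0.792% in EL, and Loxl3 30.8% in PT. The cause of the other changes was not tested. Depth limits Efemp1 in PT most, where 4 counts in all were seen.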
